A study of Oryza sativa with 10 samples.

Results

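The constitutive open chromatin sites whose summit moves are 3184 regions of the rice genome, out of 33382 sites found in all. They were chosen by measured positions. Peaks of all 10 ATAC-seq peak lists were merged into a site where they overlapped by 1 bp or more, and sites with exactly 1 peak in each of the 10 lists and a merged width under 800 bp were kept as candidates. A candidate was a moving site where the range of its 10 summits, highest minus lowest, was 100 bp or more, and a steady site otherwise. Of 33382 sites, 9508 were called in all 10 lists, 8547 of these held exactly 1 peak in each list, and 8361 of these were under 800 bp wide. The 3184 moving sites were 38.1% of the 8361 candidates (95% Wilson interval 37.0% to 39.1%, counting error only) and the 5177 steady sites were the rest.

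The lists come from whole seedlings of indica rice that germinated in darkness. The hormone groups received abscisic acid (ABA) or the auxin indole-3-acetic acid (IAA), each sprayed in DMSO shortly before the 24 h light point. The groups without hormone were kept dark, or moved to light for 8 h or 24 h. Each of the 5 groups has 2 peak lists. The study also describes a DMSO spray, which is not analysed here, so the spray and the hormone cannot be told apart when a hormone group is set against 24 h of light. Reads were aligned to MSU7.0, a genome of japonica rice, and whole seedlings mix the nuclei of several tissues.

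ATAC-seq uses a transposase that inserts adapters into DNA not covered by nucleosomes or other proteins, and a peak is a stretch with many insertions. The summit is the base of a peak where the most tags pile up. In plants such peaks often lie at promoters and at enhancers, where transcription factors bind, and 1 open region can hold several places where insertions are dense. Light drives the greening of dark-grown seedlings through photoreceptors and the transcription factors they release. ABA acts through receptors that block a family of protein phosphatases, and auxin acts by the removal of Aux/IAA repressors.

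The study describes 2 biological replicates per group, but the 2 lists of a group did not behave as independent measurements. At the candidate sites both lists of a group had their summit on the same base at 81.4% of sites for ABA, 40.1% for IAA, 43.1% for dark, 52.5% for light 8 h and 46.4% for light 24 h. Where 2 lists came from different groups (40 pairs) the share was 3.16% to 4.27%. The tag pileups of a group's 2 lists differed by a chi-square of 0.0113 to 0.0834 per site after scaling, against 0.597 to 0.984 for lists of different groups. Independent counts would give about 1 by sampling noise alone, so lists of different groups also lay below that noise in height. The lists of a group lay far further below it and shared summit bases far more often, and were counted as 1 sample. So n = 1 per group, no difference below has a replicate check, and no p-value is given. The number of peaks per list was 12659 and 13278 for ABA, and 18111 to 25302 for the other 8 lists.

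The summit range had no break at the limit that chose the sites. Moving sites had a median range of 153.5 bp with quartiles of 125 and 200 bp, and the widest range was 587 bp. Steady sites had a median range of 51 bp. A range of 200 bp or more was found at 797 moving sites and one of 300 bp or more at 153. From 100 to 109 bp there were 322 sites, and from 90 to 99 bp there were 374.

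**Figure D1:**
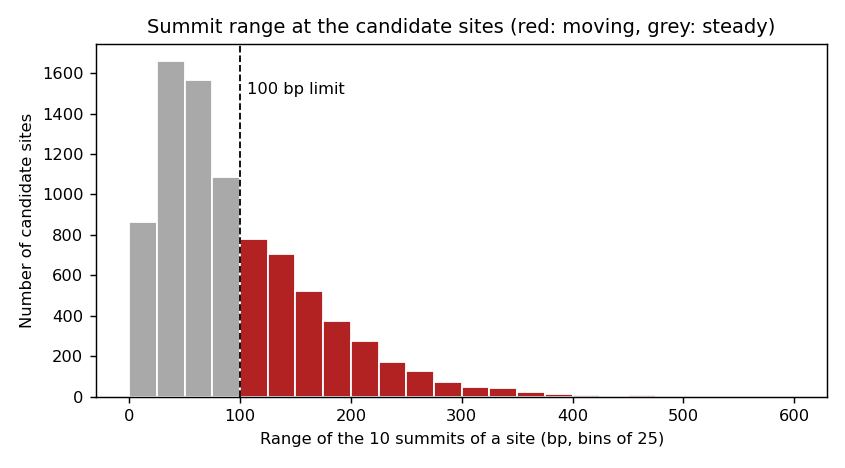
Number of candidate sites (vertical axis) by the range of their 10 summits in bp (horizontal axis, bins of 25 bp), with moving sites in red and steady sites in grey. The counts fall without a break across the 100 bp limit (dashed line).

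Sites just inside and just outside the limit differed by 1 bp in range. Just inside, each with a range of 100 bp, were chr1:11583593-11584015, chr1:11662348-11662791 and chr1:42858502-42858864 (MSU7.0). At the second of these only list 1 of the dark group stood apart, with its summit 311 bp from the site's start, against 220 bp in dark list 2. Just outside, each with a range of 99 bp, were chr1:19969901-19970281, chr1:33919271-33919520 and chr1:36640712-36640999.

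To ask which treatment moved the summit, the 10 summits of each site were sorted and divided at their largest gap. At 1528 of the 3184 moving sites (48.0%) that gap ran between the 2 lists of a group, so no treatment could be named. At 1115 sites (35.0%) a single group lay alone on 1 side, and at the remaining 541 (17.0%) 2 groups faced the other 3. ABA was the group most often alone, at 418 sites (13.1% of moving sites). IAA lay alone at 176 sites (5.53%), dark at 162 (5.09%), light 8 h at 187 (5.87%) and light 24 h at 172. All 15 possible divisions of 5 groups were counted, and ABA was part of the pair at 268 of the 541 sites divided 2 against 3. Each pair with ABA made up 1.82% to 2.58% of moving sites. At steady sites with a range above 0 these shares were 1.74% to 2.27%, so they lay near that background.

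ABA also lay alone most often at the steady sites. Over the 8342 candidates with a range above 0, moving sites included, ABA lay alone at 12.3%, IAA at 5.91%, dark at 5.27%, light 8 h at 5.98% and light 24 h at 5.42%. Set apart, moving sites had ABA alone in 13.1% (interval 12% to 14.3%) and steady sites in 11.8% (11% to 12.8%). The gap ran within a group at 48.0% of moving sites and 47.8% of steady sites. The share of sites credited to each group was therefore near this background, and is not particular to the moving sites.

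**Figure D2:**
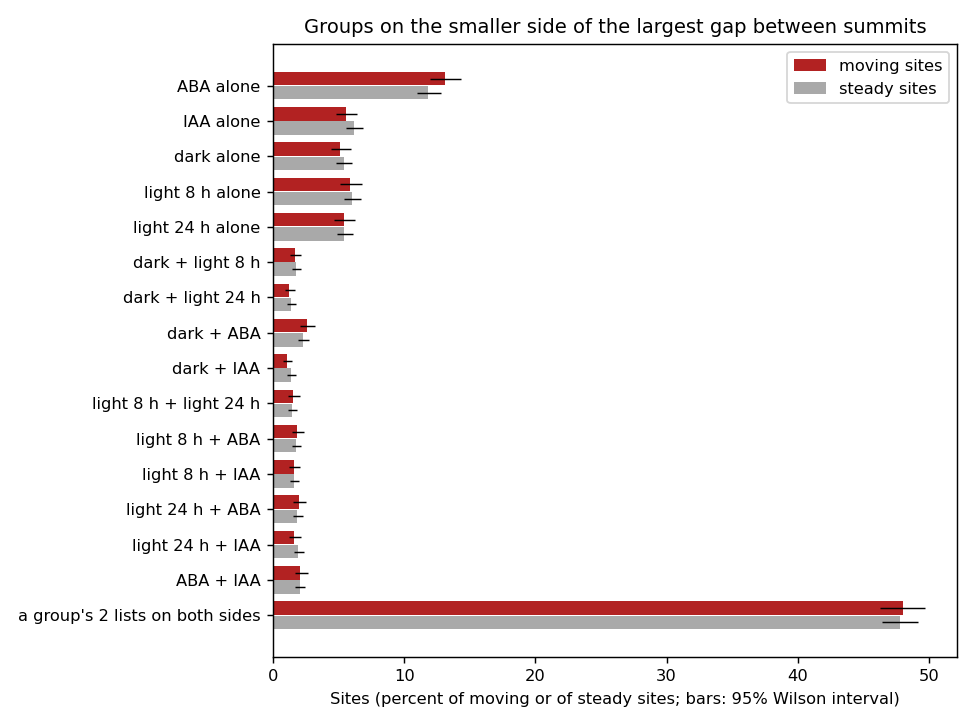
Share of sites in percent (horizontal axis, bars with 95% Wilson intervals) by the groups that lay on the smaller side of the largest gap, for moving sites (red) and steady sites (grey). ABA alone stood at 13.1% of moving sites and 11.8% of steady sites, above the other single groups in both.

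Several properties of the ABA lists went with its higher count, and their part in it was not tested. Both ABA lists shared their summit base at 76.7% of moving sites, against 34.9% to 46.1% for the other groups, and the gap divided the ABA lists at 207 moving sites, against 356 to 434 for the lists of each other group. With only list 1 of each group, a choice made after seeing the data, ABA lay alone at 584 sites and the other groups at 298 to 336. With only list 2 the counts were 575 for ABA and 281 to 327 for the others. The ABA lists also had the lowest median −log10 q at moving sites, 6.59 and 6.77, against 11.01 to 13.23 in the other 8 lists. Their lowest local background was 5.33 and 5.57 tags, against 3.10 to 4.25 tags elsewhere.

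The distance of the move was alike in all 5 groups. Where a group lay alone, its mean summit differed from the mean of the other 8 lists by a median of 120.1 bp for ABA, 113.2 bp for IAA, 124.2 bp for dark, 119.6 bp for light 8 h and 114.8 bp for light 24 h. The quartiles were 93.6 and 160.0 bp for ABA, and those of the other groups lay between 85 and 161.2 bp. The rule demands a range of 100 bp, so these distances describe the sites and do not show that a treatment moved them. The longest single move was 568.1 bp, in ABA. No direction along the chromosome prevailed: the summit lay at the higher coordinate in 51.0% of the ABA sites (interval 46.2% to 55.7%), 50.6% of IAA, 45.7% of dark, 42.8% of light 8 h and 50.6% of light 24 h sites. The interval for light 8 h, 35.9% to 49.9%, stopped just short of an even split. That interval holds counting error over sites only. Light 8 h was the most uneven of the 5 groups, and no group has a replicate check. Its share is therefore not read as a direction of movement.

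The position of the peak entered the choice of sites only through the merging, the single peak per list and the width limit. Those steps also limit how far midpoints can differ and how often a peak can miss a summit of another list. The position of the summit was used directly, so a summit distance above the midpoint distance follows from the rule. Measured in the direction of the summit, the midpoint of the peak differed by a median of 24.5 bp for ABA, 10.5 bp for IAA, 20.1 bp for dark, 19.1 bp for light 8 h and 11.1 bp for light 24 h. The midpoint went the same way as the summit at 335 of 418 ABA sites (80.1%), and at 66.5% to 73.5% of sites in the other groups. At steady sites where a group lay alone the median midpoint difference was 8.00 bp for ABA and 5.38 to 7.72 bp for the other groups, and the midpoint went the summit's way at 64.8% of ABA sites and 59.9% to 68.7% of the others. At moving sites it differed by 100 bp or more at 39 ABA sites and at 1 to 4 sites in each other group. Both peaks of the lone group still covered the median summit of the other lists at 84.2% of ABA sites and at 92.5% to 95.9% of sites in the other groups. In the opposite direction, all 8 other peaks covered the lone group's summit at 63.9% of ABA sites and 61.1% to 65.7% in the other groups.

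**Figure D3:**
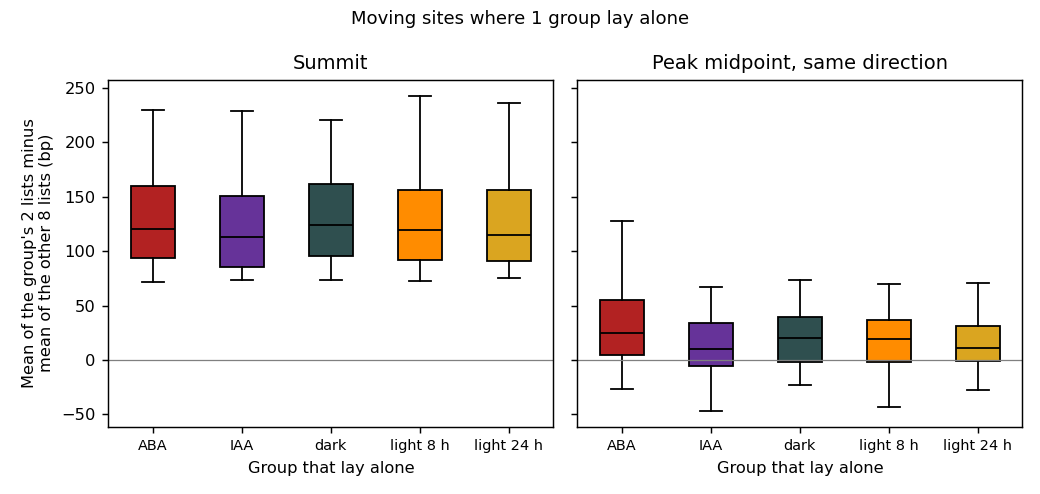
Distance in bp between the lone group and the other 8 lists, for the summit (left) and for the peak midpoint in the summit's direction (right), at the sites where ABA, IAA, dark, light 8 h or light 24 h lay alone. Boxes span the quartiles with the median, whiskers the 5th to 95th percentile. Summit medians lie at 113.2 to 124.2 bp and midpoint medians at 10.5 to 24.5 bp.

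Each group's peaks were lower, relative to the other lists, at the moving sites where it lay alone than at steady sites. The pileup, the number of tags at the summit, was solved from the fold enrichment and p-value of each peak. At its own sites the pileup of ABA was 0.848 times the median of the other lists (0.925 at steady sites), and that of dark 0.856 times (0.971 at steady sites). The ratio was 1.06 for IAA, 0.971 for light 8 h and 0.948 for light 24 h, with 1.10, 1.01 and 1.00 at steady sites. The ABA peaks were 0.864 times as wide as those of the other lists at sites where ABA lay alone, and also 0.864 times as wide at steady sites. In each other group this width ratio was higher at its own sites. It was 1.105 for dark, 1.052 for light 8 h, 1.035 for light 24 h and 1.108 for IAA. At steady sites it was 1.065, 0.990, 0.980 and 1.097 in the same order.

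Between pairs of groups, a move was counted where both lists of 1 group lay 100 bp or more from both lists of the other, on the same side. A candidate with such a move is a moving site by construction, so the share of all 8361 candidates is the background and nothing further is read from it. Light 8 h against dark moved 541 sites, 6.47% of candidates, with the light 8 h summit at the higher coordinate in 253 and the lower in 288. Light 24 h against light 8 h moved 525 (6.28%), 271 to the higher coordinate and 254 to the lower. Light 24 h against dark moved 502 (6%), 223 to the higher and 279 to the lower. That comparison was the most uneven of the 10, with 44.4% to the higher coordinate (interval 40.1% to 48.8%, counting error over sites only). As the extreme of 10 comparisons that share lists, with 1 sample per group, it is not read as a direction of movement.

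The hormone comparisons share the 24 h light lists. ABA against light 24 h moved 794 sites, 9.5% of candidates, with 402 to the higher coordinate and 392 to the lower. IAA against light 24 h moved 489 sites (5.85%), 247 to the higher and 242 to the lower. Against dark, ABA moved 771 sites (9.22%) and IAA 527 (6.3%). Against light 8 h, ABA moved 866 sites (10.4%) and IAA 515 (6.16%), and ABA against IAA moved 784 (9.38%). Each of the 4 comparisons with ABA thus had more moves than any of the 6 without it. The count asks for both lists of each group, and the ABA lists shared their summit base most often. With mean summits 100 bp or more apart, ABA against light 24 h moved 972 sites and IAA against light 24 h 682. The comparisons among dark and light groups then moved 696 to 756. The part of the ABA lists' likeness in these counts was not tested. The median distance of the counted moves was 146 to 153 bp in all 10 comparisons. At 1114 of the 3184 moving sites (35.0%) no pair of groups met this limit.

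The spread between lists of a group was part of the same picture. At 1032 moving sites (32.4%) the 2 lists of at least 1 group lay 100 bp or more apart. A candidate with such a spread is a moving site by construction, so these are 1032 of all 8361 candidates. The percentages in this paragraph are of moving sites, unlike the shares of candidates given for the pair moves. Of moving sites, the pair moves were 15.4% (IAA against light 24 h) to 27.2% (ABA against light 8 h). This was so at 127 moving sites for ABA (3.99%), 276 for IAA (8.67%), 306 for dark (9.61%), 232 for light 8 h (7.29%) and 252 for light 24 h (7.91%). The median distance within a group at moving sites was 0 bp for ABA and 2 to 4 bp for the others. At steady sites it was 0 bp for ABA and 0 to 2 bp for the others. Between groups the median distance at moving sites was 60 to 64 bp for pairs with ABA and 46 to 50 bp for the others. At steady sites it was 17 to 17.5 bp for pairs with ABA and 14.5 to 15 bp for the others, so this order is not particular to the moving sites. Whether the lists of a group share tags was looked at only through their summit bases and pileups, and not in the reads. The distance between separate seedling samples of a group cannot be read from lists so alike.

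Some tall sites showed a move with both lists of every group in place. The sites named here are those with the highest lowest −log10 q among sites with a distance of at least 100 bp and a largest gap of at least 50 bp. Summits are given as bp from the first base of the site. ABA lay alone at chr1:18686203-18686936, where both of its summits were at 279 bp, against 424 and 436 bp in IAA, 406 and 406 bp in dark, 408 and 408 bp in light 8 h, and 429 and 430 bp in light 24 h. The ABA pileup was 130 tags in both lists and that of the others 116 to 144 tags, so the groups overlapped in height and were apart by 127 bp in summit position. At chr6:14043478-14044243 both ABA summits were at 425 bp, against 238 to 294 bp in the other 8 lists, and at chr1:17583293-17583823 they were at 213 bp, against 267 to 341 bp. In the last of these the other lists spread over more than the 54 bp gap that set ABA apart.

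IAA lay alone at chr1:17464761-17465372, with summits at 248 and 260 bp, against 462 to 483 bp in the other 8 lists. Its pileups were 58 and 56 tags, against 57 to 65 tags. At chr8:11102384-11102928 the IAA summits were at 335 and 330 bp, against 197 to 206 bp. At chr2:10717615-10718154 both were at 307 bp, against 178 to 193 bp. That the IAA summits did not overlap the others at these sites follows from how the sites were chosen. The pileups overlapped at each.

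Dark lay alone at chr8:25347449-25347822, with summits at 95 and 97 bp, against 242 to 255 bp in the other 8 lists. The dark pileups were 112 and 111 tags, within the 99 to 128 tags of the rest. At chr1:39121256-39121681 the dark summits were at 118 and 124 bp, against 297 to 318 bp, and at chr8:12797729-12798220 both were at 97 bp, against 195 to 219 bp. All 3 sites had tall peaks in every list, and the midpoint of the dark peaks differed from that of the others by −3.88, 1.88 and 3.19 bp in this order, signed here along the chromosome and not by the direction of the summit.

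Light 8 h lay alone at chr5:16551779-16552341, where both summits were at 114 bp, against 267 to 286 bp in the other 8 lists. At chr2:13156100-13156819 both were at 480 bp, against 215 to 277 bp, and at chr10:1202822-1203569 they were at 290 and 287 bp, against 469 to 501 bp. By the choice of the sites, these 3 positions differed from dark and were not shared by light 24 h. Light 24 h lay alone at chr12:20640885-20641448, with both summits on the same base, 312 bp before the nearest of the other 8 lists, which were at 413 to 420 bp. The distance was −314.2 bp, at pileups of 148 and 146 tags, against 132 to 138 tags. At chr8:11753744-11754416 both light 24 h summits were at 374 bp, against 184 to 203 bp, and at chr1:1489858-1490336 they were at 135 and 136 bp, against 298 to 318 bp.

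**Figure D4:**
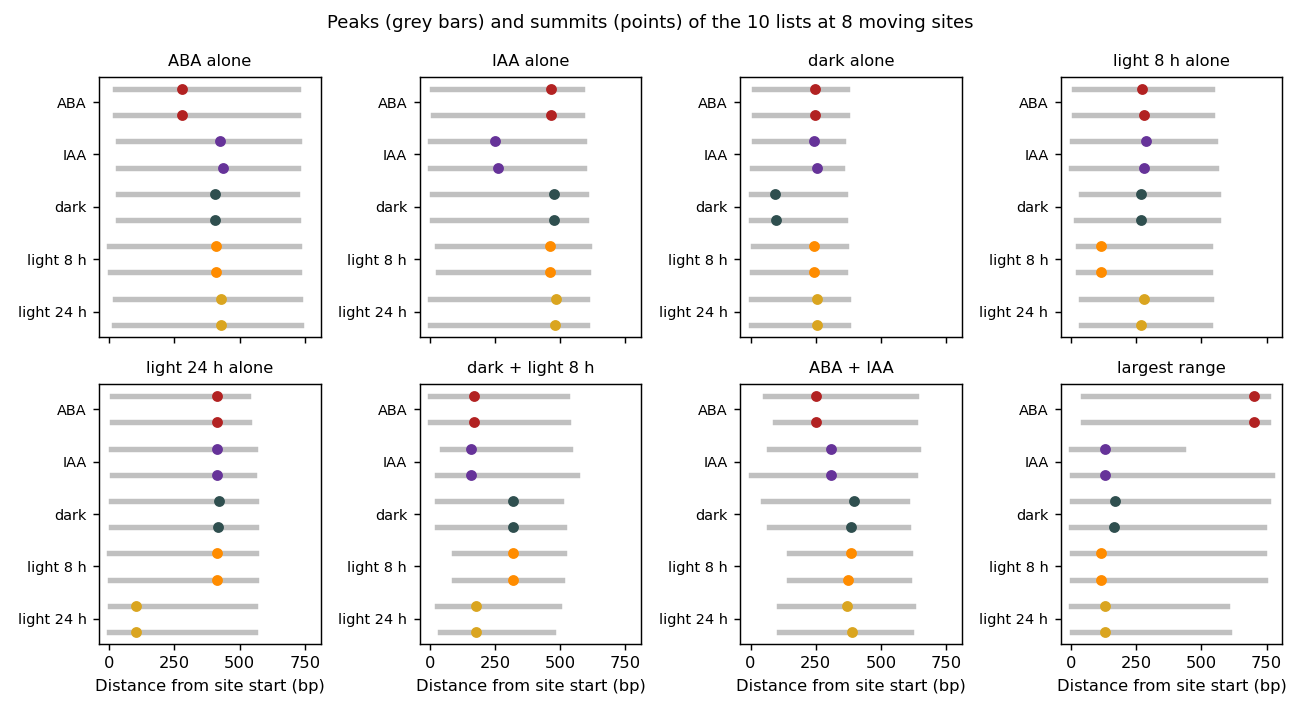
Peaks (grey bars) and summits (points) of the 10 lists at 8 moving sites, as distance in bp from the start of each site, with 2 rows per group. In each of the first 5 panels the points of 1 group stand apart while the bars keep nearly the same extent, and in the panel with the largest range the ABA summits lie at 703 bp.

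Sites where 2 groups faced 3 were fewer. Dark and light 8 h were set against light 24 h, ABA and IAA at 52 sites. These were 1.63% of moving sites, and the same division was found at 1.76% of steady sites with a range above 0. At chr1:141568-142130 the summits were at 176 and 176 bp in light 24 h, 169 and 169 bp in ABA and 159 and 159 bp in IAA, against 317 and 317 bp in light 8 h and 319 and 319 bp in dark. The pileups of all 10 lists there were 62 to 71 tags. At chr2:24044746-24045379 the summits lay at 372 to 403 bp in those 3 later groups, against 231 and 231 bp in light 8 h and 218 and 203 bp in dark. At chr3:5988738-5989536 they lay at 226 to 267 bp in the later groups, against 363 and 358 bp in light 8 h and 427 and 394 bp in dark.

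ABA and IAA together were set against dark and both light times at 66 sites. These were 2.07% of moving sites, and the same division was found at 2.04% of steady sites with a range above 0. The pattern is thus not particular to the moving sites. At chr2:16986626-16987047 both ABA summits were at 319 bp and the IAA summits at 287 and 291 bp, against 147 to 158 bp in the 6 lists without hormone. At chr4:26996741-26997501 the hormone summits were at 343 to 347 bp, against 489 to 518 bp. At chr7:12742-13384 ABA was at 250 and 250 bp and IAA at 308 and 309 bp, against 369 to 396 bp, so the hormone groups also differed from each other. Over the 21 sites named for these patterns the distance was 103.4 to 314.2 bp and the midpoint differed by a median of 8.46 bp.

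The 3 widest ranges were of unlike kinds. At chr10:20342335-20343106, with the largest range of 587 bp, both ABA summits were at 703 bp, against 116 to 167 bp in the other 8 lists, and the ABA pileup was 24 tags in each list, against 35 to 54 tags. At chr8:21170424-21171167 the summits of the 2 light 8 h lists were at 149 and 683 bp, with 19 and 21 tags. At chr1:7568934-7569654 the 2 IAA lists were at 126 and 641 bp, with 35 and 36 tags, and the other 8 lists had 31 to 43 tags. In the last 2 sites the range lay within a group.

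The median merged width was 422 bp in moving sites and 321 bp in steady sites. The median pileup was 29 tags in moving sites and 32 in steady sites, and the median of the lowest −log10 q over the 10 lists was 5.36 and 6.85 in the same order. The share of candidates that moved was 1.33% of those 100 to 199 bp wide and 75.8% of those 700 to 799 bp wide. A summit range cannot exceed the merged width, and peaks that shift widen the merged site, so the rule itself links the share to width and nothing further is read from this trend. By the lowest pileup of the 10 lists, 52.0% of 1419 sites under 20 tags moved, and 8.89% of 371 sites with 50 tags or more.

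**Figure D5:**
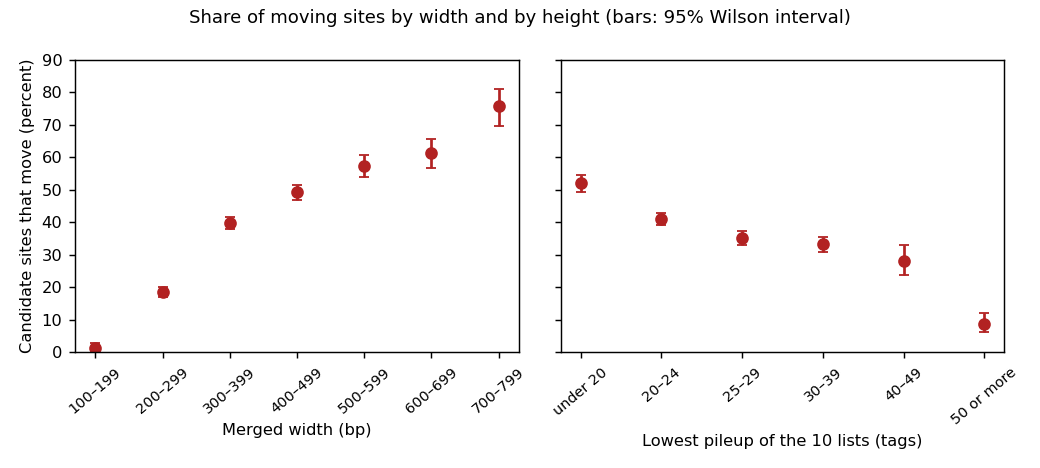
Share of candidate sites that move in percent (vertical axis, points with 95% Wilson intervals) by merged width in bp (left) and by the lowest pileup of the 10 lists in tags (right). The share climbs with width, to 75.8%, and drops with height, to 8.89%.

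The share also differed with height within a width class. Among sites 300 to 399 bp wide, 65.4% of those with a lowest pileup under 20 tags moved, 39.3% of those with 20 to 29 tags and 17.6% of those with 30 tags or more. Among sites 500 to 599 bp wide the shares were 80.3%, 62.8% and 45.3%. Among the 2257 candidates with at least 30 tags in all 10 lists, 641 moved, and ABA lay alone at 83, IAA at 30, dark at 36, light 8 h at 42 and light 24 h at 33. With at least 50 tags, 33 of 371 moved, and ABA lay alone at 1, IAA at 1, dark at 3, light 8 h at 1 and light 24 h at 2. The higher count of ABA was not seen at this height, where the counts are too small to rank the groups.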

How the data were processed

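Peak lists from 10 libraries, 2 per group, were analysed as deposited. The authors trimmed reads at the 3′ end, aligned them to MSU7.0 with Bowtie2 2.3.2, filtered them with SAMtools 1.9 and used MACS2 to call peaks. The files hold 1 list per library, and whether reads were pooled or split within a group before calling is not given in the sources used here. No shift of reads for the transposase is described, so summits carry any offset this leaves. The deposited columns used were peak start, end and summit offset, the fold enrichment (a ratio), and −log10 p and −log10 q. The deposited score column was not used. Library totals are not in peak lists, so the depth is unknown.

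Sites, summit ranges and divisions were computed with Python 3.11.15, NumPy 2.4.6 and pandas 2.3.3. The pileup at each of 200537 summits was solved from fold enrichment and −log10 p as a whole number. The steps were tested on simulated data. Named sites were the 3 per pattern with the highest lowest −log10 q, the 3 of largest range, and 3 on each side of the limit. Members and rules were chosen with earlier results of these data known. Gene positions, gene names and sequence at the sites were not analysed here.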

Additional observations from a re-analysis of the deposited data

How the results depend on the processing

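The counts depend on the limits, and the order of the groups does so less: ABA lay alone more often than any other group under every alternative given here, though not among the 371 sites with 50 tags or more in all lists (1 site for ABA, up to 3 for another group). With a range of 150 bp or more, 1695 sites moved (20.3%), with a median range of 195 bp. ABA lay alone at 212, IAA at 84, dark at 89, light 8 h at 102 and light 24 h at 89, and 832 were divided within a group. Pair moves were then 247 (light 8 h against dark), 227 (light 24 h against light 8 h), 224 (light 24 h against dark), 339 (ABA against light 24 h) and 207 (IAA against light 24 h). A width under 600 bp gave 35.6% and a median of 149 bp. With −log10 q of at least 5, 1823 sites moved (32.4%), ABA lay alone at 239, IAA at 102, dark at 102, light 8 h at 109 and light 24 h at 103, 845 were divided, and the pair moves in the same order were 332, 304, 301, 469 and 310. An overlap of 50% of the shorter peak, a gap of at least 50 bp and mean summits moved no count by over 1.5 times.

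Chosen after seeing the data, a pileup of at least 30 in all lists left 641 sites (28.4%), with ABA alone at 83, IAA at 30, dark at 36, light 8 h at 42 and light 24 h at 33, 296 divided, and pair moves of 125, 108, 113, 174 and 110. With only list 1 of each group, 32.6% moved, IAA lay alone at 315, dark at 322, light 8 h at 336 and light 24 h at 298, and the pair moves were 1014, 935, 969, 1195 and 904. With only list 2, 32.3% moved, with 327, 281, 313 and 282 alone, and pair moves of 910, 895, 913 and, for IAA, 902.

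With each list left out in turn, 3104 to 3250 sites moved (36.7% to 37.6%) and the median range was 153 to 154 bp. ABA lay alone at 427 to 498, IAA at 181 to 267, dark at 166 to 260, light 8 h at 187 to 270 and light 24 h at 174 to 257, and 1218 to 1436 sites were divided. Pair moves were 545 to 753, 530 to 687, 508 to 700, 801 to 995 and 493 to 674. Without dark list 2, dark lay alone at 260, and without IAA list 1, IAA lay alone at 267. A group with 1 list cannot be divided by a gap.

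No paired analysis was possible because the results come from no test. Depth limits these values: a summit of a peak with few tags can fall on another base by counting alone, and how many of the moves this covers was not tested. The planned look at gene starts, motifs and base composition was not run.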

Other observations

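The share of candidates that moved differed along the genome. By chromosome it was 26.3% (135 of 513, interval 22.7% to 30.3%) on chromosome 12 and 33.6% to 43.5% on the other 11. Over 113 stretches of 2 Mb with at least 40 candidates, the share had a median of 39.7% and ran from 6.90% to 64.0%. The lowest was from 12 to 14 Mb on chromosome 12, where 6 of 87 candidates moved. The second lowest was on the same chromosome, from 20 to 22 Mb, where 6 of 44 moved (13.6%). Its median lowest pileup was 66.5 tags, and its sites are among the other candidates of that chromosome given next. The median of the lowest pileup was 70 tags at those 87 sites, against 25 tags at the other 426 candidates of that chromosome, of which 30.3% moved. The part of height in this difference was not tested.

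Moving sites lay closer to another site. The nearest site of any kind was a median of 1742 bp away from moving sites and 2355 bp from steady sites. It lay within 1000 bp at 36.7% of moving sites (interval 35.0% to 38.3%) and 31.2% of steady sites (30.0% to 32.5%). Merged width, which also differed, bears on this distance, and its part was not tested.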
